A study of Caenorhabditis elegans with 30 samples.

Results

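The insulin signaling pathway of Caenorhabditis elegans was followed through its 10 core genes, daf-2, ist-1, aap-1, age-1, pdk-1, akt-1, akt-2, sgk-1, daf-18 and daf-16, of the 46739 genes counted. They were chosen by name as the receptor, the kinases and phosphatase behind it, and the transcription factor at its end. In this pathway insulin-like peptides bind the receptor DAF-2, which activates the phosphatidylinositol kinase AGE-1. The lipid that AGE-1 makes brings PDK-1 and the AKT kinases to the membrane, and these keep the FOXO factor DAF-16 out of the nucleus by phosphorylation, while the lipid phosphatase DAF-18 removes the lipid. In worms the pathway sets lifespan, larval arrest, fat storage and resistance to stress. Much of its regulation is on protein and on where DAF-16 sits in the cell, neither of which is measured by RNA sequencing. SWI/SNF chromatin remodeling complexes, which are classed as BAF or PBAF, are known in worms as partners of DAF-16 at its target genes. The study takes swsn-9 as a representative of PBAF, and no partnership of that class with DAF-16 is implied here.

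RNA of whole hermaphrodites was sequenced in 30 libraries, 5 in each of 6 groups, from about 100 worms per library. N2 wild-type worms spent 18 h from the L4 stage on plates holding 0 or 400 mM ethanol, and were harvested as young adults either immediately (0 h) or after 6 h on plates without ethanol (6 h postexposure). Mutants homozygous for the deletion allele swsn-9(ok1354), which lack a normal copy of a bromodomain subunit of SWI/SNF, were exposed to 0 or 400 mM in the same way and harvested at 0 h. The mutants are 1 strain, outcrossed to N2, and had no 6 h groups.

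Library totals ran from 11812827 to 23505210 counted reads (median 16480465), and the 10 pathway genes had between 46 and 21532 counts each in every library. The gene swsn-9 stood at 181 to 215 CPM (counts scaled by effective library size) in the 20 wild-type libraries and at 52.3 to 65.5 in the 10 mutant libraries. Markers of germline, sperm, oocyte, intestine, muscle, neurons and hypodermis, the tissues of a whole hermaphrodite, were detected in each group. The 400 mM library of replicate 1 at 6 h stood apart, with 18.0% of its counts on ribosomal RNA genes and the lowest scaling factor (0.798). Since whole worms were used, fewer cells of a type and less RNA per cell cannot be told apart in any value below.

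Levels of different genes were compared per length, as RPKM (CPM per kilobase of exon). In wild type without ethanol at 0 h the receptor gene daf-2 (chromosome III, 2994514 to 3040846, minus strand, WBGene00000898) stood at 17.6 ± 0.958 RPKM (SD, n = 5). The gene of the receptor substrate, ist-1 (X, 7126648 to 7139666, plus strand, WBGene00002163), was the lowest of the 10 at 1.36 RPKM. The adaptor subunit of the kinase, aap-1 (I, 5107843 to 5110183, plus strand, WBGene00000001), stood at 51.6 RPKM and its catalytic subunit age-1 (II, 11519328 to 11527054, minus strand, WBGene00000090) at 32.3 RPKM. The adaptor thus had more RNA per length than the enzyme it binds, 1.52 to 1.70 times as much over the 5 libraries.

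The opposing phosphatase gene daf-18 (IV, 420011 to 425177, minus strand, WBGene00000913) was the highest of the 10 at 242 ± 18.8 RPKM. It lay between 7.14 and 7.89 times above age-1 in the 5 libraries. The kinase gene pdk-1 (X, 1321344 to 1327986, plus strand, WBGene00003965) stood at 5.55 RPKM. Of the kinases downstream of it, akt-1 (V, 10248905 to 10252845, plus strand, WBGene00000102) stood at 103 RPKM, sgk-1 (X, 16254842 to 16262122, minus strand, WBGene00004789) at 14.4 RPKM and akt-2 (X, 14147700 to 14152070, plus strand, WBGene00000103) at 3.45 RPKM. The FOXO gene daf-16 (I, 10750498 to 10776703, plus strand, WBGene00000912) stood at 27.6 RPKM. Positions are those of assembly WBcel235, and each range covers the whole gene with its exons, introns and untranslated ends.

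The order per length was therefore daf-18, akt-1, aap-1, age-1, daf-16, daf-2, sgk-1, pdk-1, akt-2 and ist-1. Only daf-2 and sgk-1 overlapped between neighbors, sgk-1 reaching 18.1 RPKM in its highest library and daf-2 16.7 in its lowest. Wild type at 6 h without ethanol had the same order with no overlap between neighbors. At 400 mM and 0 h, akt-2 (3.65 to 5.66 RPKM) and pdk-1 (3.49 to 5.02 RPKM) overlapped, as did age-1 and daf-16, which also overlapped at 400 mM and 6 h. In swsn-9 mutants daf-16 stood at 32.6 RPKM beside age-1 at 31.2 at 0 mM, with overlapping libraries, and at 36.6 against 29.6 at 400 mM, where they did not overlap. The mean of sgk-1 also lay above that of daf-2 in both mutant groups (18.8 against 18.4 and 21.5 against 21 RPKM), with overlapping libraries. At 400 mM the mutant libraries of pdk-1 (mean 5.72 RPKM) and akt-2 (5.21 RPKM) overlapped as well.

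**Figure D1:**
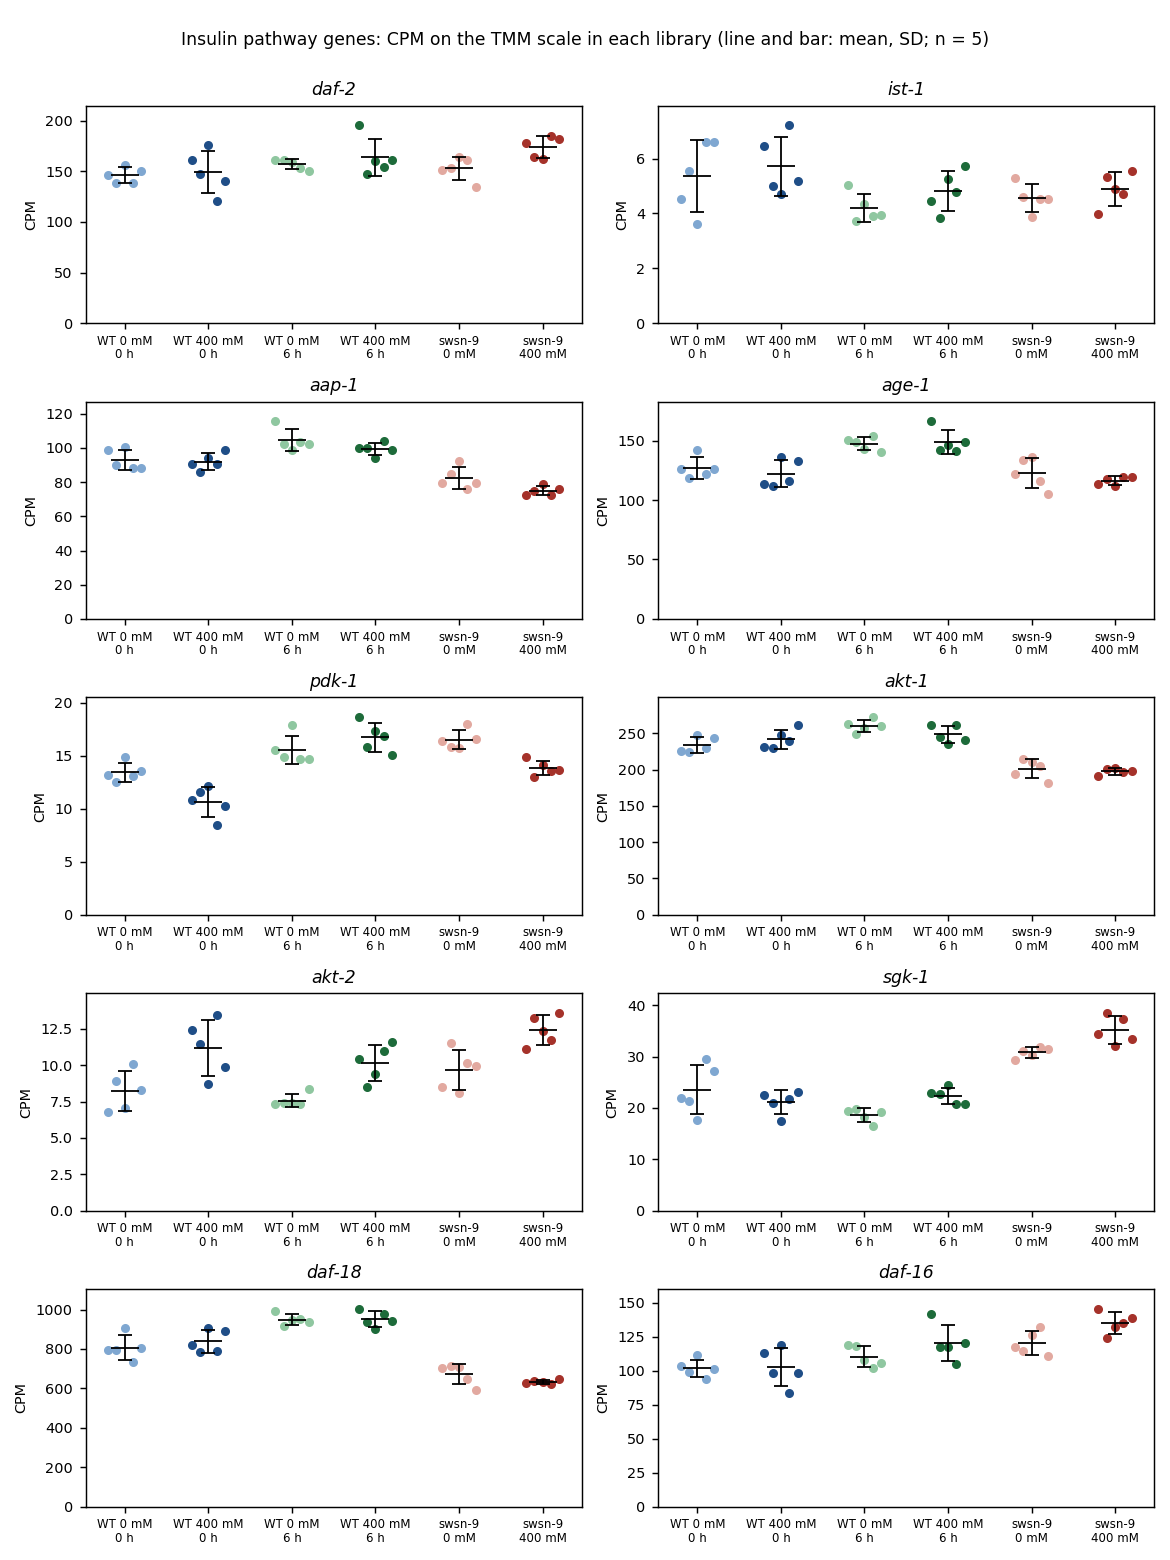
CPM of each pathway gene (vertical axis, from 0) in the 30 libraries, by genotype, ethanol and time (horizontal axis). Points are libraries, the line and bar are mean and SD (n = 5). The pdk-1 points at 400 mM and 0 h in wild type (8.45 to 12.2 CPM) all lie below those at 0 mM (12.5 to 14.9), and all mutant points of daf-18 (593 to 714 CPM) lie below all wild-type points.

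The effect of prolonged ethanol was asked of wild type immediately after exposure. Of the 10 pathway genes 1 rose, akt-2, and 1 fell, pdk-1, and the other 8 did not pass the test. Among all 16210 genes tested, 12.8% passed, so the share of pathway genes that changed lay near that of genes in general. The median change of the 10 genes was 0.03 on the log2 scale, against 0.01 over all genes.

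The RNA of pdk-1, whose product phosphorylates AKT kinases, fell by 20.3% at 0 h. At 0 mM it stood at 13.2, 12.5, 14.9, 13.1 and 13.6 CPM in replicates 1 to 5, and at 400 mM at 10.8, 11.6, 12.2, 8.45 and 10.3 CPM. Every ethanol library was below every control library. Groups without overlap, in either direction, made up 9.04% of all genes, and there was no other such pathway gene. The log2 fold change was -0.33 (SE 0.10, 95% interval -0.53 to -0.13, adjusted p = 0.0262, edgeR quasi-likelihood test with Benjamini-Hochberg adjustment).

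The RNA of akt-2, the less abundant of both AKT genes, rose 1.36-fold. It stood at 6.76, 8.92, 7.06, 10.1 and 8.28 CPM at 0 mM and at 12.4, 11.4, 8.69, 13.5 and 9.89 CPM at 400 mM. The 3rd and 5th ethanol libraries lay within the range of the controls and the others above it. The log2 fold change was 0.44 (SE 0.13, 95% interval 0.18 to 0.71, edgeR adjusted p = 0.0227).

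Neither call rested on wide margins. Without the 0 mM library of replicate 3 neither gene passed (adjusted p = 0.0749 for pdk-1 and 0.064 for akt-2), nor without the 400 mM library of replicate 4 (0.0742 and 0.086). The call of pdk-1 was also lost without the 400 mM library of replicate 5 (0.0577) and with library totals as the only scaling (0.0713). That of akt-2 was also lost without replicate 1 at 0 mM (0.0657) or at 400 mM (0.0642). With only the groups compared in the fit, both were lost (0.0761 and 0.0744).

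The 8 genes that did not pass at 0 h had log2 fold changes between -0.15 and 0.09. The receptor gene daf-2 had 0.04 (95% interval -0.12 to 0.20) and daf-16 0.02 (-0.15 to 0.19). For aap-1 the interval was -0.12 to 0.10, for age-1 -0.17 to 0.09, for akt-1 -0.04 to 0.15 and for daf-18 -0.05 to 0.17. The interval of daf-2 still held a fold change of 1.15 and that of age-1 one of 0.89. The interval of sgk-1 was wider (-0.37 to 0.07), and that of ist-1, the gene with the fewest counts, was the widest (-0.26 to 0.44).

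At 6 h postexposure the question was what remained once ethanol had been removed. None of the 10 pathway genes passed, and 3.94% of all genes did. At an unadjusted p under 0.05 there were 2 pathway genes, akt-2 and sgk-1, against 18.7% of all genes. DESeq2 called 1 of the 10, akt-2. On chromosome X, which carries ist-1, pdk-1, akt-2 and sgk-1, 4.84% of genes tested passed upward at 6 h and 0.262% downward. On autosomes 2.44% and 1.31% did. The median log2 change at 6 h was 0.13 on X and 0.001 on autosomes. The part of the X chromosome was not tested.

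The level of akt-2 at 6 h was 7.35, 7.40, 7.39, 7.32 and 8.36 CPM without ethanol, and 10.4, 8.50, 9.39, 11 and 11.6 CPM after ethanol. The groups did not overlap, which held in either direction for 6.47% of all genes. Its log2 fold change was 0.43 (SE 0.13, 95% interval 0.17 to 0.70, edgeR adjusted p = 0.0559). It passed in the fit with all 30 libraries (adjusted p = 0.0347), with only the groups compared (0.0334) and in DESeq2 (0.0376). The difference between its ethanol effects at 6 h and 0 h was -0.01 with a 95% interval of -0.39 to 0.36.

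The kinase gene sgk-1 stood at 19.3, 19.8, 18.2, 16.4 and 19.2 CPM without ethanol at 6 h and at 22.9, 22.7, 24.4, 20.8 and 20.7 CPM after it, again without overlap. Its log2 fold change of 0.27 (95% interval 0.05 to 0.49) had an adjusted p of 0.178 in edgeR, and passed only with the replicate block (0.0311). At 0 h the same contrast had been -0.15, from 21.9, 21.3, 17.7, 29.6 and 27.2 CPM to 22.6, 20.9, 17.4, 21.8 and 23.1 CPM. The 2 highest values of sgk-1 at 0 h were thus those of control replicates 4 and 5, and all other libraries lay between 17.4 and 23.1 CPM. The difference between the times was 0.41 (95% interval 0.10 to 0.73, adjusted p = 0.127), and passed without the 0 h control library of replicate 3 (0.0301), the lowest of its group. It also passed with the replicate block (0.0207).

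For pdk-1 the ethanol effect at 6 h was 0.11 (95% interval -0.08 to 0.30), from 15.6, 14.9, 17.9, 14.7 and 14.7 CPM to 18.6, 15.9, 17.4, 16.8 and 15.1 CPM. The libraries overlapped and, unlike at 0 h, the mean was higher after ethanol. The effects at the 2 times differed by 0.44 on the log2 scale (SE 0.13, 95% interval 0.16 to 0.72, edgeR adjusted p = 0.0576). This difference did not pass, and it was the smallest p of the 10, with 0 pathway genes and 5.28% of all genes passing (3.1% with a higher effect at 6 h and 2.18% with a lower one). It passed with all 30 libraries fitted (0.0174), in DESeq2 (0.0406), with ribosomal RNA genes removed (0.0496) and with a filter that edgeR sets by group size (0.0419). Leaving out the 400 mM library of replicate 2 (0.0445) or 3 (0.0319) at 0 h, or the control library of replicate 3 at 6 h (0.0346), also made it pass. So did the replicate block (0.0197). On chromosome X, which carries pdk-1, 5.62% of genes tested passed with a higher ethanol effect at 6 h than at 0 h. There 1.74% passed with a lower one, and on autosomes the shares were 2.68% and 2.26%. The median difference was 0.16 on X and -0.01 on autosomes.

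In swsn-9 mutants immediately after ethanol, the same 2 genes passed out of 10, akt-2 upward and pdk-1 downward, where 24.3% of all genes passed. A count of 2 of 10 lies near that share. At an unadjusted p under 0.05 there were 6 pathway genes, and 36.9% of all genes.

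In the mutants pdk-1 went from 16.4, 15.8, 15.8, 18.0 and 16.6 CPM at 0 mM to 14.9, 13, 14.1, 13.6 and 13.6 CPM at 400 mM. No ethanol library reached a control library. Groups without overlap, in either direction, made up 16.9% of all genes. The log2 fold change was -0.25 (SE 0.08, 95% interval -0.42 to -0.09, edgeR adjusted p = 0.0216). The call was lost with library totals as the only scaling (0.137) and without a filter on low counts (0.0589).

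The level of akt-2 went from 8.53, 11.5, 8.10, 10.2 and 9.93 CPM to 11.1, 13.3, 12.3, 11.76 and 13.6 CPM. All but the 1st ethanol library lay above the highest control. The log2 fold change was 0.36 (SE 0.12, 95% interval 0.12 to 0.60, edgeR adjusted p = 0.026). The call was lost without the 0 mM library of replicate 1, 3 or 4 (0.0984, 0.113 and 0.0513) and without the 400 mM library of replicate 2, 3 or 5 (0.0817, 0.0654 and 0.105).

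A further 4 genes had intervals that excluded 0 in the mutants without passing the adjusted threshold. The receptor gene daf-2 had a log2 fold change of 0.19 (95% interval 0.04 to 0.34, edgeR adjusted p = 0.0597), and daf-16 had 0.17 (0.01 to 0.32, adjusted p = 0.104). The adaptor aap-1 had -0.13 (-0.24 to -0.03, adjusted p = 0.0544). For sgk-1, which went from 29.3, 31.1, 30.3, 31.8 and 31.4 CPM to 34.5, 38.5, 32, 37.3 and 33.5 CPM without overlap, it was 0.19 (0.0038 to 0.38, adjusted p = 0.128). Whether these passed turned with the settings. Of 18 alternatives aap-1 passed in 12, with an adjusted p from 0.00463, daf-2 in 6 (from 0.00442), daf-16 in 4 (from 0.0137) and sgk-1 in 2 (from 0.0133). The phosphatase gene daf-18 passed only without the 0 mM library of replicate 5 of the mutants (0.0187).

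None of the 10 pathway genes had an ethanol effect that differed between the genotypes, while 4.15% of all genes did (1.4% higher in the mutants and 2.75% lower). At an unadjusted p under 0.05 there was 1, sgk-1, and DESeq2 called 0. For akt-2 the difference was -0.07 (95% interval -0.42 to 0.27) and for pdk-1 0.08 (-0.16 to 0.32), intervals that leave room for differences nearly as large as the ethanol effects. For sgk-1 the difference was 0.35 (SE 0.13, 95% interval 0.08 to 0.62, adjusted p = 0.154), and it passed without the wild-type 0 mM library of replicate 3 (0.0309). With the replicate block the difference passed too (0.0324). For daf-18 it was -0.14 (-0.29 to 0.0048), and it passed without the mutant 0 mM library of replicate 5 (0.0468). The ethanol comparisons at 0 h and between genotypes share the wild-type libraries at 0 h.

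**Figure D2:**
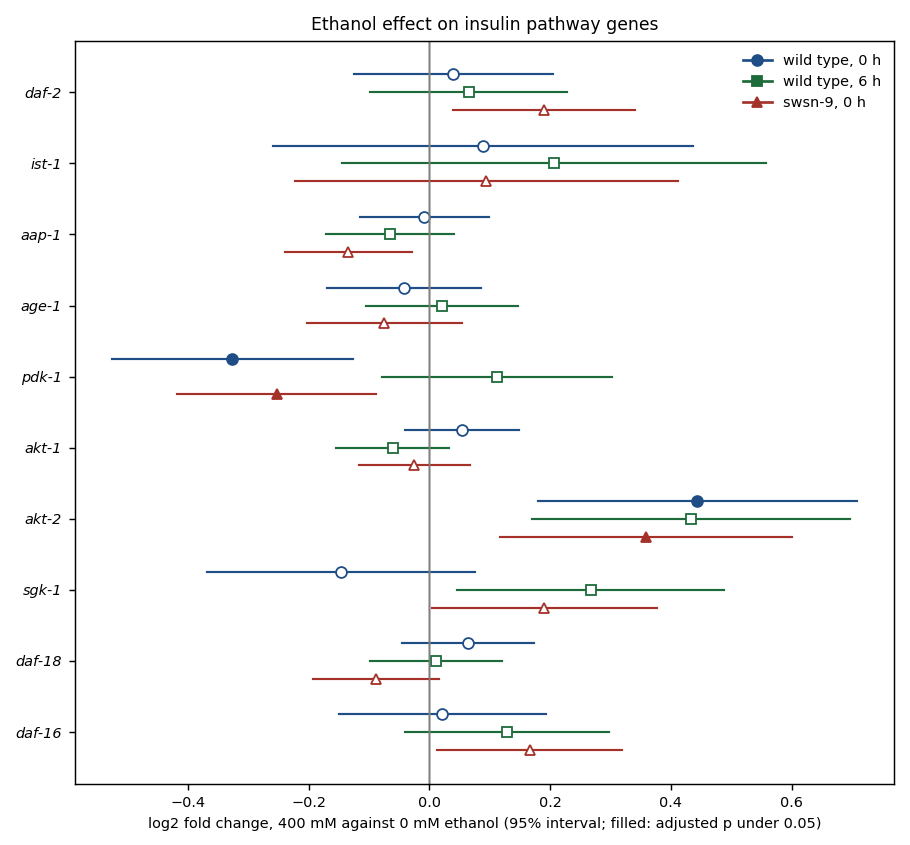
Log2 fold change from 0 to 400 mM ethanol (horizontal axis) of the 10 pathway genes (vertical axis) in wild type at 0 h and 6 h and in swsn-9 mutants at 0 h. Bars are 95% intervals and filled symbols have an adjusted p under 0.05. The akt-2 symbols lie at 0.44, 0.43 and 0.36, and pdk-1 lies below 0 in both genotypes at 0 h (-0.33 and -0.25) but not at 6 h (0.11).

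The share of akt-2 among the counts of both AKT genes does not depend on scaling between libraries. In wild type at 0 h it was 2.91, 3.83, 2.77, 4.21 and 3.29% without ethanol and 5.11, 4.75, 3.39, 5.34 and 3.65% with it. At 6 h it was 2.62 to 3.12% without ethanol and 3.36 to 4.59% after it, and in the mutants 3.70 to 5.20% and 5.50 to 6.41%. The groups did not overlap at 6 h or in the mutants, and overlapped at 0 h in wild type. Thus akt-1 held most of the AKT counts in every library. In the annotation akt-1 shares 8 bases of exon on the opposite strand with rop-1, which had up to 4101 counts. The exons of the pathway genes shared at most 7.53% of their length with another gene, that of aap-1 with a gene of at most 36 counts.

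The ratio of daf-18 to age-1 per length was 7.14 to 7.89 in wild type at 0 h without ethanol and 7.85 to 8.51 with it. At 6 h it was 7.23 to 7.87 and 7.11 to 8.14. In the mutants it was 6.11 to 6.79 and 6.14 to 6.68, below every wild-type library. These ratios are given as descriptions, without a test.

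**Figure D3:**
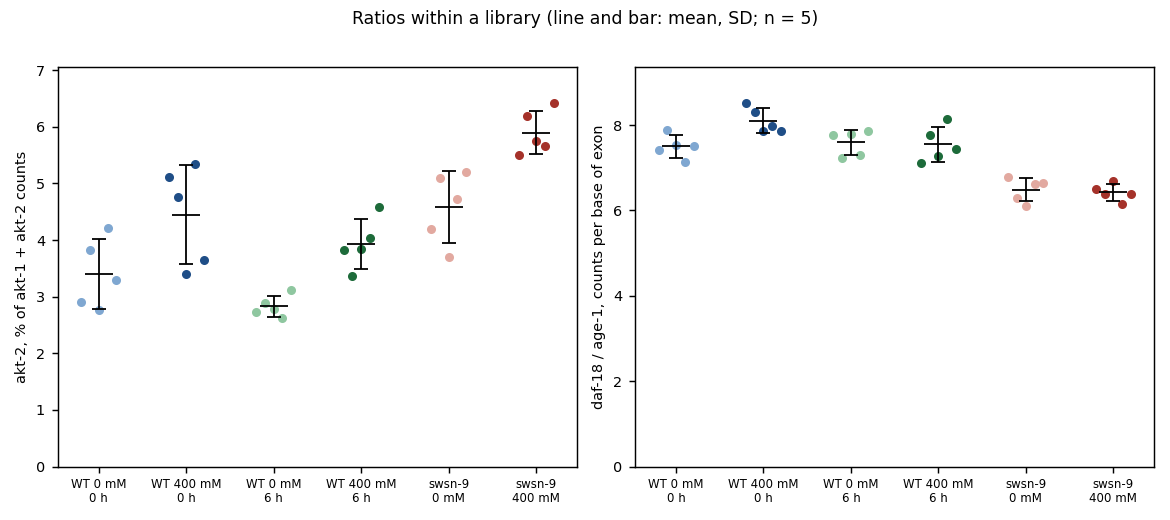
Left, share of akt-2 in the counts of akt-1 and akt-2 together (vertical axis, %), and right, ratio of daf-18 to age-1 in counts per base of exon (vertical axis), in each library by group. The line and bar are mean and SD (n = 5). The akt-2 share at 6 h is 2.62 to 3.12% without and 3.36 to 4.59% after ethanol, and the daf-18 ratio of all mutant libraries lies between 6.11 and 6.79.

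The loss of normal swsn-9 without ethanol went with changes in both directions. Of the 10 pathway genes 3 were higher in the mutants, sgk-1, pdk-1 and daf-16, and 3 were lower, daf-18, akt-1 and aap-1. Among all 16934 genes tested, 45.5% passed, 23.2% higher and 22.3% lower, so 6 of 10 is not far from the share of genes in general. At an unadjusted p under 0.05 these same 6 were counted, against 51.4% of all genes. The fold changes were small, between 0.83 and 1.31. Neither the labels nor the study's methods say that mutants and wild type were collected on the same days. Genotype and collection day thus cannot be told apart here.

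The largest rise was that of sgk-1, from 21.9, 21.3, 17.7, 29.6 and 27.2 CPM in wild type to 29.3, 31.1, 30.3, 31.8 and 31.4 CPM in the mutants (log2 0.39, SE 0.09, edgeR adjusted p = 0.00121). A single wild-type library, replicate 4, reached into the range of the mutants. The level of pdk-1 rose 1.23-fold, from 12.5 to 14.9 CPM to 15.8 to 18.0 CPM without overlap (adjusted p = 0.00385). That of daf-16 rose 1.19-fold, from 103, 98.7, 111, 93.7 and 101 CPM to 118, 114.7, 126, 132 and 111 CPM (adjusted p = 0.00908). The lowest mutant library of daf-16 lay beside the highest wild-type library.

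The largest fall was that of daf-18, from 792, 793, 908, 736 and 803 CPM to 702, 714, 708, 649 and 593 CPM, without overlap (log2 -0.26, SE 0.05, edgeR adjusted p = 0.000117). The level of akt-1 went from 226, 224, 248, 229 and 244 CPM to 194, 215, 211, 205 and 181 CPM, also without overlap (log2 -0.22, adjusted p = 0.000192). Groups without overlap made up 3 of the 10 genes, daf-18, akt-1 and pdk-1, and 30.2% of all genes in either direction. That of aap-1, from 88.2 to 101 CPM to 76.1 to 92.2 CPM, changed by -0.18 (adjusted p = 0.00545). Its call was lost without wild-type replicate 1 (0.0714) or mutant replicate 1, 4 or 5 (0.0627, 0.0746 and 0.056). The levels of daf-2 (0.07, 95% interval -0.09 to 0.22) and age-1 (-0.05, -0.18 to 0.08) did not pass. That of akt-2 (0.23, -0.03 to 0.48) did not pass either. It passed without wild-type replicate 4 (0.0457) or mutant replicate 3 (0.0415), and with library totals (0.0209).

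The falls depended on how libraries were scaled. With library totals in place of TMM factors the median log2 change of all genes moved from 0.06 to 0.21, and daf-18 (-0.11, adjusted p = 0.0705), akt-1 (-0.07, 0.242) and aap-1 (-0.03, 0.752) no longer passed, while daf-2 (0.22, 0.00886) and akt-2 (0.38, 0.0209) did. The split of called pathway genes was then 5 higher and 0 lower. Relative to the median of all genes, these 3 genes lay below it under either scaling.

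Other lists moved with the same comparison. All 9 germline markers were lower in the mutants at 0 mM, and their summed level was 2917 to 3336 CPM against 4275 to 4489 in wild type. Of 11 oocyte markers 9 were lower and 1 higher, and of 10 neuron markers 8 were higher. Genes on chromosome X were higher in the mutants in 37.8% of cases and lower in 6.55%, those on autosomes in 20.9% and 25%. Of the 4 pathway genes on X, pdk-1 and sgk-1 were higher, ist-1 and akt-2 did not pass, and none was lower. Of the 6 autosomal ones daf-16 was higher and daf-18, akt-1 and aap-1 lower. The part of tissue proportions and of the X chromosome in these differences was not tested.

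Without ethanol, wild type at 6 h was compared with wild type at 0 h, worms that also differed in age and in the transfer to other plates. Of the 10 pathway genes 4 were higher at 6 h, daf-18, age-1, akt-1 and aap-1, and 1 was lower, sgk-1. Among all genes 19.1% passed, 8.19% higher and 10.9% lower. At an unadjusted p under 0.05 pdk-1 joined them (0.22, adjusted p = 0.115), against 32.3% of all genes.

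The level of daf-18 was 991, 915, 945, 954 and 937 CPM at 6 h, every library above those at 0 h (log2 0.24, SE 0.05, edgeR adjusted p = 0.00321). That of akt-1 was 263, 249, 258, 272 and 260 CPM, again with no overlap, which held in either direction for 12.1% of all genes (0.16, adjusted p = 0.0164). The level of age-1 went from 126, 118.5, 142.03, 122 and 126 CPM to 150, 149, 143, 154 and 140 CPM (0.22, adjusted p = 0.0135). That of aap-1 went from 98.5, 89.9, 101, 88.5 and 88.2 CPM to 116, 102, 98.5, 104 and 102 CPM (0.17, adjusted p = 0.0218).

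The catalytic and adaptor subunits of the kinase and the phosphatase against it were thus all higher at 6 h, by 12.8 to 18.2%. The level of sgk-1 was 20.7% lower (-0.33, adjusted p = 0.0332), with 0 h controls spread from 17.7 to 29.6 CPM. Its call was lost without replicate 4 (0.143) or 5 (0.0963) at 0 h, without replicate 1, 3 or 4 at 6 h (0.0549, 0.0599 and 0.0993), with only the groups compared (0.0603) and with library totals (0.0721). The call of aap-1 was lost without replicate 2, 4 or 5 at 0 h (0.06, 0.0702 and 0.0582) or replicate 1 at 6 h (0.0805), and that of akt-1 without replicate 2 at 0 h (0.0517). With a block that joined the times by replicate number, aap-1 (0.0504), akt-1 (0.0544) and sgk-1 (0.101) did not pass. For these control groups, deviations of same-numbered libraries from their group means correlated between -0.25 and 0.101. In 0 of 5 cases was the own number the best match. Neither the labels nor the study's methods say that both times were collected on the same days. Time and collection day thus cannot be told apart here. The gene ist-1 passed only without replicate 3 at 0 h (-0.46, 0.045).

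All 9 sperm markers were lower at 6 h, from a summed 25.2 to 129 CPM to 1.96 to 35.4 CPM. Of 11 oocyte markers 10 were higher, and of 6 intestine markers 4 were lower. Their part in the changes of the pathway genes was not tested. The comparisons of time, of genotype and of ethanol at 0 h share the same 5 wild-type control libraries, so that a control value far from the others enters each of them.

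**Figure D4:**
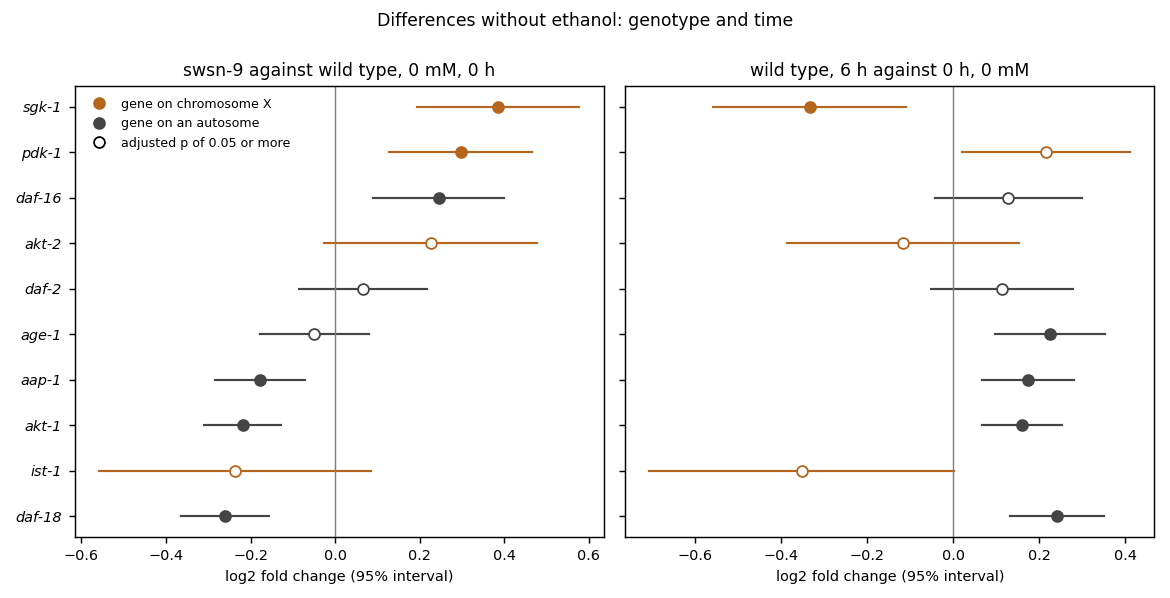
Log2 fold change (horizontal axis, with 95% interval) of the pathway genes (vertical axis, ordered by the genotype difference) without ethanol, for swsn-9 against wild type at 0 h (left) and for 6 h against 0 h in wild type (right). Color gives the chromosome and filled symbols have an adjusted p under 0.05. The 2 largest rises in the mutants are those of the X-linked genes sgk-1 (0.39) and pdk-1 (0.30), and daf-18 is lowest at left (-0.26) and highest at right (0.24).

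Among 16933 other genes, those whose means over the 6 groups ran most like daf-2 were atg-9, Y71H2B.5 and T26C12.1, with a root mean square difference of 0.03 log2 units between the centered means. For daf-16 they were D1025.10, lpin-1 and glo-4, at 0.03 each. With 6 group means such likeness is a description.

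The ligands of DAF-2 were followed with 40 insulin-like peptide genes, of which 39 were matched and 27 had enough counts in wild type to be tested. At 0 h after ethanol 1 was higher and 2 were lower, against 6.81% and 5.94% of all genes. The peptide gene ins-34 fell from 2.58 ± 0.430 CPM to 0.679 ± 0.342 CPM (SD, n = 5), with no overlap (log2 -1.88, edgeR adjusted p = 3.37e-05). In the mutants it went from 3.43 to 0.495 CPM (-2.77, adjusted p = 6.81e-10). At 6 h it stood at 2.09 CPM without and 1.87 CPM after ethanol. In wild-type controls at 0 h it was the most abundant of the peptide genes named here, with 24 to 39 counts per library.

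The gene ins-33 had 1 to 6 counts per library at 400 mM and 0 h, against 3 to 11 without ethanol (log2 -1.71, adjusted p = 0.0192). At 6 h it went the other way, from 3 to 7 counts to 8 to 21 (1.49, adjusted p = 0.0439). The ins-33 call was lost in 4 of 19 alternatives at 0 h (adjusted p up to 0.0684) and in 11 of 19 at 6 h (up to 0.105). At 0 h ins-5 rose from 0.433 to 1.05 CPM (1.24, adjusted p = 0.0379) and in the mutants from 0.433 to 0.946 CPM (1.08, adjusted p = 0.0383). The ins-5 call was lost in 9 of 19 alternatives in wild type (up to 0.0975) and in 10 of 18 in the mutants (up to 0.111). In the mutants ins-23 and ins-37 were also higher after ethanol, with at most 28 counts in any library. Of 29 peptide genes tested in the mutants 3 were higher and 1 lower after ethanol, with 10.1% and 14.3% over all genes.

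Between genotypes without ethanol 4 of 29 peptide genes were higher in the mutants and none lower, where 23.2% of all genes were higher and 22.3% lower. They were ins-7, known in worms as an agonist of DAF-2 whose gene is repressed by DAF-16, ins-4, ins-2 and ins-26. The level of ins-7 was 3.63 ± 0.739 CPM in the mutants and 1.15 ± 0.507 CPM in wild type (log2 1.64, adjusted p = 2.03e-05). That of ins-4 was 1.39 against 0.477 CPM (1.51, adjusted p = 0.000709). The gene ins-2 had 18 to 23 counts in each mutant library and 0 to 6 in wild type, and ins-26 had 11 to 34 and 1 to 12. The median of the 29 genes was 0.49, against 0.06 over all genes. Many insulin-like peptide genes are expressed in neurons, and 8 of 10 neuron markers were higher in the same comparison, whose part was not tested.

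Of 31 further regulators of the pathway 27 were tested. At 0 h in wild type 2 were higher after ethanol and 1 was lower, where 6.81% and 5.94% of all genes were. At 6 h 1 was higher and 2 were lower, where 2.78% and 1.16% of all genes were. The arginine methyltransferase gene prmt-1, whose product modifies DAF-16, fell at 0 h from 763 ± 34.4 to 613 ± 46.2 CPM (log2 -0.31, adjusted p = 9.62e-05). It fell again at 6 h, from 648 to 523 CPM (-0.30, adjusted p = 0.000641), and in the mutants, from 520 to 452 CPM (-0.20, adjusted p = 0.00196). No library overlapped in any of these comparisons. The call of prmt-1 in the mutants was lost in 1 of 18 alternatives (0.127).

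The gene ftt-2, for a protein that holds phosphorylated DAF-16 in the cytoplasm, rose in wild type from 221 to 259 CPM at 0 h (0.24, adjusted p = 0.00215) and from 229 to 279 CPM at 6 h (0.29, adjusted p = 0.00133). Its call at 6 h was lost in 1 of 19 alternatives (0.0607). In the mutants it stood at 329 CPM without and 337 CPM with ethanol, above wild type without ethanol (0.57, adjusted p = 3.45e-11). The related gene par-5 was lower in the mutants, 818 against 1016 CPM (-0.31, adjusted p = 8.35e-08). The gene pqm-1, whose zinc finger factor acts opposite to DAF-16 at many genes, rose from 9.60 to 16.4 CPM at 0 h in wild type (0.77, adjusted p = 0.00948) and from 18.9 to 35 CPM in the mutants (0.90, adjusted p = 9.55e-05). At 6 h imb-2, for an importin of DAF-16, fell from 340 to 306 CPM (-0.15, adjusted p = 0.0344), a call lost in 6 of 19 alternatives (up to 0.0745).

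In the mutants after ethanol 2 of 27 regulators were higher and 4 were lower, beside 10.1% and 14.3% of all genes. Besides pqm-1, hlh-30, for a factor of lysosome and fat genes, rose from 70.3 to 85.1 CPM (0.28, adjusted p = 0.00689). The kinase gene cst-1 fell from 15.5 to 11.9 CPM (-0.39, adjusted p = 0.00211). Between genotypes 7 of 27 regulators were higher in the mutants and 9 were lower, beside 23.2% and 22.3% of all genes. Without ethanol rict-1, for the complex through which SGK-1 is activated in worms, was higher at 6 h than at 0 h in wild type, 164 against 130 CPM (0.34, adjusted p = 0.000292). So were hsf-1 (0.26) and skn-1 (0.17), stress factors that act with or beside DAF-16. The gene prmt-1 was lower at 6 h, 648 against 763 CPM (-0.23, edgeR adjusted p = 0.00252). These were 3 higher and 1 lower of 27 regulators, beside 8.19% and 10.9% of all genes.

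The output of the pathway was followed in genes known to be raised in daf-2 mutants, most of them through DAF-16. This list, like the others, was chosen with earlier results of these data known, so its counts and medians are descriptions. At 0 h in wild type 7 of 17 tested rose after ethanol, 1 fell and 9 did not pass, with a median log2 change of 0.66 against 0.01 over all genes, of which 6.81% rose and 5.94% fell. At 6 h 3 rose and none fell, where 2.78% of all genes rose and 1.16% fell. In the mutants 11 of 18 rose and none fell, where 10.1% rose and 14.3% fell. Between 7 and 9 of them were called at 0 h over the alternatives, between 2 and 6 at 6 h, and between 11 and 15 in the mutants.

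The gene of the glyoxylate cycle enzyme, icl-1, rose from 146 ± 29.7 to 518 ± 107 CPM at 0 h (log2 1.83, SE 0.16, adjusted p = 2.6e-08) and stood at 129 and 127 CPM at 6 h. In the mutants it rose from 345 to 716 CPM (1.05, adjusted p = 5.32e-06). The transhydrogenase gene nnt-1 rose from 1.2 to 5.68 CPM at 0 h (2.25, adjusted p = 1.67e-07), from 1.06 to 3.69 CPM at 6 h (1.80, adjusted p = 6.63e-05) and from 2.46 to 7.26 CPM in the mutants (1.56, adjusted p = 1.33e-07). The metallothionein gene mtl-1 had at most 1 count per wild-type control library at 0 h and 15 to 25 after ethanol, and at 6 h at most 4 and 2 counts. The cytochrome P450 gene cyp-34A9 rose from 3.33 to 12.8 CPM at 0 h (1.94, adjusted p = 9.81e-05).

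At 6 h the small heat shock gene sip-1 rose from 863 to 1309 CPM (0.61, adjusted p = 4.48e-05), and it was higher after ethanol at 0 h and in the mutants as well. The lysozyme gene lys-8 rose from 70.7 to 90.2 CPM at 6 h (0.36, adjusted p = 0.0243), a call lost in 7 of 19 alternatives (up to 0.101). In the mutants the water channel gene aqp-1 rose from 23.7 to 43.0 CPM (0.86, adjusted p = 3.49e-07), whereas in wild type at 0 h it stood at 17.6 and 14.8 CPM. Not all genes of the list went together, and at 0 h lys-7, chosen after its values were seen, fell from 32.5 to 20.0 CPM (-0.69, adjusted p = 0.0286). Several of these genes are expressed in the intestine. Of 6 intestine markers 1 rose and 3 fell at 0 h, with a summed level of 767 to 913 CPM without and 599 to 766 CPM with ethanol, and of 7 early embryo markers 4 fell, with a summed level of 4.92 to 10.7 CPM without and 3.25 to 5.94 CPM with ethanol. At 6 h 3 of the 6 intestine markers rose after ethanol and none fell, where 2.78% of all genes rose and 1.16% fell. The part of either list was not tested.

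Of genes known to be lowered in daf-2 mutants, 11 were tested. At 0 h 3 fell and 1 rose, in the mutants 4 fell and 1 rose, and at 6 h none fell and 2 rose. Over all genes 5.94% fell and 6.81% rose at 0 h, 14.3% and 10.1% in the mutants, and 1.16% and 2.78% at 6 h. The 6 h count ran from 1 to 5 over the alternatives. The gene dod-24 fell from 21.2 ± 9.22 to 2.54 ± 0.749 CPM at 0 h (-3.06, SE 0.30, adjusted p = 1.23e-07) and from 10.1 to 1.5 CPM in the mutants (-2.77, adjusted p = 6.88e-08). At 0 h dod-17 fell from 3.88 to 0.880 CPM (-2.09, adjusted p = 0.000103), and dod-22, with 3 to 48 counts in control libraries, had 0 to 8 after ethanol, a call lost without control replicate 5 (adjusted p = 0.0896). In the mutants dod-19 fell from 105 to 43.2 CPM (-1.28, adjusted p = 9.23e-07). Against these, dod-23 rose from 44.6 to 66.2 CPM at 0 h, from 41.7 to 71.2 CPM at 6 h (0.77, adjusted p = 1.21e-05) and from 58.2 to 79.2 CPM in the mutants. The yolk protein gene vit-2 rose at 6 h from 22741 to 26564 CPM (0.23, adjusted p = 0.0185), a call lost in 6 of 19 alternatives (up to 0.0875). The part of the intestine markers that rose at 6 h was not tested here either.

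Between genotypes without ethanol, 8 of 18 genes of the raised list were higher in the mutants and 2 were lower, and 3 of 11 genes of the lowered list were higher and 1 was lower. Examples of the first are icl-1 (345 against 146 CPM), the saposin gene spp-1 (31 against 15.1 CPM), lys-7 (83.2 against 32.5 CPM) and dod-3 (5.07 against 0.818 CPM). The superoxide dismutase gene sod-3, named after its values were seen as the best known target of DAF-16, was lower (-1.92, adjusted p = 0.006). Of the lowered list ins-7 and dod-19 were higher and dod-24 was lower (10.1 against 21.2 CPM). Thus genes of both lists were raised in the mutants, where 23.2% of all genes were higher and 22.3% were lower.

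**Figure D5:**
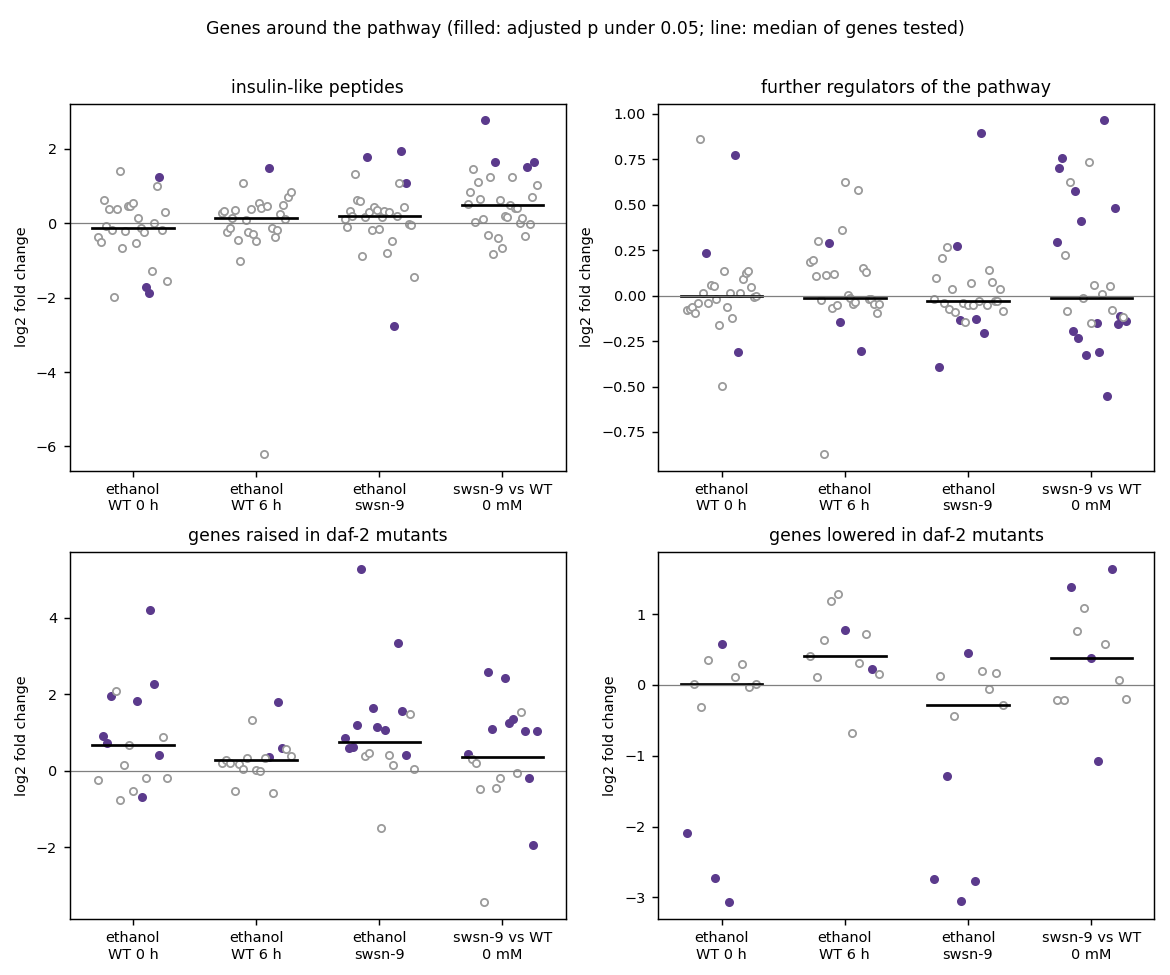
Log2 fold change (vertical axis) of insulin-like peptides, further regulators and genes raised or lowered in daf-2 mutants, for ethanol in wild type at 0 h and 6 h and in swsn-9 mutants and for the genotype difference at 0 mM (horizontal axis). Each point is a gene, filled with an adjusted p under 0.05, and the line is the median of genes tested. Values of genes with few counts depend on the fit and are no measured folds. The median of the raised list is 0.66 at 0 h, 0.28 at 6 h and 0.74 in the mutants.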

How the data were processed

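Total RNA was polyA selected and sequenced as 150-base paired ends. The authors aligned reads with STAR 2.6.0a, kept reads with 1 alignment only, and deposited 1 table of raw, unnormalized counts per gene for the 30 libraries. The annotation release and the strand column are not given in the sources used here, so reads of overlapping genes on opposite strands cannot be told apart. The paper writes WBcel325. The identifiers are those of WBcel235, from whose Ensembl 115 annotation positions and exon lengths were taken. Symbols were found for 43720 of 46739 identifiers.

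Counts were tested with edgeR 4.0.16 in R 4.3.3 (TMM scaling, genes with a mean count of 1 or more, quasi-likelihood F test, Benjamini-Hochberg adjusted p under 0.05, no fold cutoff). As in the study's methods, wild type was fitted alone (20 libraries, 16210 genes) and the mutants with it (30 libraries, 16934 genes). Standard errors were derived from F. CPM and RPKM are on the TMM scale of all libraries. None of 60 library pairs within groups was a copy. Totals of 11812827 to 23505210 counts limit counting error only, and the spread between libraries sets the precision.

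Alternatives were DESeq2 1.42.0, its size factors in edgeR, library totals, removal of ribosomal RNA genes, other low count filters, other sets of libraries, a replicate block and leaving out each library.

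Named were all 10 pathway genes, swsn-9, at most 4 genes per further list and comparison (the smallest p among those passing), and the 3 genes most like daf-2 and daf-16. The members and lists were chosen with earlier results of these data known. No sequences are printed, since no table or genome with them was used here.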

Additional observations from a re-analysis of the deposited data

Results flagged for a closer look

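In wild type at 0 mM and 6 h, pdk-1 in replicate 3 stood at 17.9 CPM, far above the other 4 libraries (14.7 to 15.6 CPM), and akt-2 in replicate 5 stood at 8.36 CPM against 7.32 to 7.40 CPM. These are 2 of the 66 groups of 5 libraries examined for the pathway genes and swsn-9, and chance alone gives about 1 in 20.

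None of the pathway genes had an ethanol effect that passed a test of its difference between times or genotypes. Among the genes of the further lists 15 did, 11 between times and 4 between genotypes. Between times they were 2 of 27 peptide genes, 0 of 27 regulators, 5 of 17 raised and 4 of 11 lowered genes, and 5.28% of all genes passed. Between genotypes they were 0 of 29, 0 of 27, 3 of 18 and 1 of 11, and 4.15% of all genes passed. Between 6 h and 0 h in wild type, the ethanol effect differed by 3.20 on the log2 scale for ins-33, 1.74 for ins-34, -1.85 for icl-1, -2.46 for cyp-34A9 and 0.54 for lys-8. For the related lysozyme gene lys-7, named after its values were seen, it differed by 1.03 (adjusted p = 0.0325). It differed by 2.39 for dod-24, 2.49 for dod-17, 4.02 for dod-22 and 0.94 for dod-19. For mtl-1 it differed by -4.77, a value that depends on the fit since this gene had at most 4 counts in any library but those harvested straight after ethanol and those of the mutants. Positive values mean that the effect was higher at 6 h. Between mutants and wild type at 0 h it differed by 1.11 for aqp-1 and 1.69 for hsp-12.6, a small heat shock gene with at most 36 counts, both higher in the mutants, and by -0.77 for icl-1 and -0.96 for dod-19, both lower in the mutants. The adjusted p in edgeR ran from 7.28e-06 for icl-1 to 0.0373 for dod-19 between times and from 3.49e-05 for aqp-1 to 0.0338 for hsp-12.6 between genotypes. Of 28 alternatives each, the difference between times was lost in 15 for dod-19 (adjusted p up to 0.0869) and in 1 for lys-8 (0.0669), and that between genotypes in 9 for hsp-12.6 (up to 0.0962) and in 5 for icl-1 (up to 0.0826). All these genes are on lists chosen with earlier results of these data known.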

How the results depend on the processing

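For the 15 pathway gene changes that passed, the direction held in all 277 alternatives, and 237 of these also kept the adjusted p under 0.05. Over all 70 contrasts of the 10 pathway genes, 62 of 1490 alternatives turned a direction, and none of the changes that turned had passed. The depth limits ist-1, akt-2 and most of the peptide genes, which had the fewest counts. The causes of the changes below were not tested.

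The count of pathway genes called moved as follows. For ethanol at 0 h (2) it was 1 with library totals, 0 with only the groups compared and 0 to 2 without 1 library. At 6 h (0) it was 1 with all 30 libraries, with only the groups compared and with DESeq2, and 0 without any 1 library. In the mutants (2) it was 4 with the filter that edgeR sets by group size, 5 with only the groups compared and 1 to 4 without 1 library. For the difference between times (0) it was 1 without ribosomal RNA genes, with the filter by group size, with all 30 libraries and with DESeq2, and 0 to 1 without 1 library. For the difference between genotypes (0) it was 0 to 1 without 1 library, for time (5) 3 to 6, and for genotype (6) 5 to 7.

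Per the study's methods, each replicate had its own day, on which treated and untreated plates ran side by side. The labels do not say that a replicate number marks a shared day. The deviations of same-numbered libraries correlated above 0.1 in 4 of 5 pairs at 0 h (0.0709 to 0.518) and 4 of 5 at 6 h (0.0701 to 0.283). In the mutants 2 of 5 did (-0.125 to 0.308). The numbers were not taken as pairs because not every pair passed 0.1. Every wild-type pair correlated positively, so this rule does not show that the libraries are unpaired. In 3, 4 and 2 of the 5 pairs the library correlated best with its own number. Between the 0 h and 6 h controls, which the block for time joins, 0 of 5 did (-0.25 to 0.101). The mean correlation for the same number was 0.241 at 0 h, 0.189 at 6 h and 0.109 in the mutants. For other numbers it was -0.0601, -0.0474 and -0.0267. These values follow from the first, since each group was centered on its own mean, and are no separate comparison. If the libraries are paired by number, the main tests leave this pairing out. With the replicate block the count of pathway genes was 2 at 6 h, where akt-2 (0.0115) and sgk-1 (0.0311) passed, 6 in the mutants, 2 for the difference between times (pdk-1 0.0197, sgk-1 0.0207), 1 for that between genotypes (sgk-1 0.0324) and 2 for time, where aap-1 (0.0504), akt-1 (0.0544) and sgk-1 (0.101) no longer passed. In the mutants daf-2 (0.0197), aap-1 (0.0267), sgk-1 (0.0285) and daf-16 (0.0137) were added. The genes called with the block were 1583 in place of 639 at 6 h, 1576 in place of 856 for the difference between times, 1171 in place of 703 for that between genotypes and 1940 in place of 3098 for time.

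Among all genes, library totals gave 389 at 6 h and 441 for the difference between genotypes. Without 1 library the counts ran from 339 to 715 at 6 h, from 585 to 1372 for the difference between genotypes and from 1950 to 3703 for time. Library totals also moved the balance of higher against lower genes, from 1104 and 963 to 1101 and 552 at 0 h, from 451 and 188 to 213 and 176 at 6 h, from 1702 and 2420 to 1925 and 1097 in the mutants, from 503 and 353 to 285 and 426 between times, and from 3933 and 3775 to 4999 and 1271 between genotypes without ethanol. At 6 h it was 424 and 278 with DESeq2's size factors in edgeR and 540 and 416 with DESeq2.

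Directions turned only where changes were near 0. With library totals the log2 change was 0.035 for aap-1 and 0.0017 for age-1 at 0 h, -0.027 for age-1 and -0.034 for daf-18 at 6 h, 0.046 for akt-1 in the mutants, -0.071 for daf-2 and -0.029 for age-1 between times, and 0.099 for age-1 between genotypes without ethanol. At 6 h daf-18 was also -0.0027 with DESeq2's size factors, -0.00096 without a filter and -0.0028 with DESeq2. In the mutants akt-1 was 0.012 with the filter by group size and with only the groups compared, and under these settings the genotype difference of age-1 was 0.023 and 0.015.

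Without 1 library the log2 change at 0 h ran from -0.030 to 0.11 for daf-2, -0.023 to 0.18 for ist-1, -0.030 to 0.023 for aap-1, -0.087 to 0.0039 for age-1, -0.042 to 0.086 for daf-16 and -0.0089 to 0.048 for swsn-9. At 6 h it ran from -0.0073 to 0.088 for daf-2, -0.023 to 0.037 for age-1, -0.018 to 0.025 for daf-18 and -0.032 to 0.0026 for swsn-9, and in the mutants from -0.034 to 0.041 for swsn-9. Between times the difference ran from -0.054 to 0.095 for daf-2, -0.095 to 0.054 for akt-2 and -0.060 to 0.0029 for swsn-9. Between genotypes it ran from -0.089 to 0.13 for ist-1, -0.11 to 0.0096 for age-1, -0.0018 to 0.11 for pdk-1, -0.19 to 0.0033 for akt-2 and -0.057 to 0.048 for swsn-9. For the genotype without ethanol it ran from -0.072 to 0.031 for age-1.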
